A study of Rattus norvegicus with 18 samples.

Results

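The genes described here build the postsynaptic side of excitatory and inhibitory synapses and hold it to the presynaptic side. They were chosen as a list of 45 gene symbols: the neurexins, neuroligins and a cerebellin, the receptor phosphatases and leucine-rich-repeat proteins that bind across the cleft, the calsyntenins, and the scaffold families of the postsynaptic density with the kinase CaMKII. Of the 45 symbols, 44 matched a row among the 32623 genes of each table, and Slitrk4 was not analysed here. Lrrtm1 was matched ignoring letter case. RNA was sequenced from the prefrontal cortex (PFC) of 18 Sprague Dawley rat pups at post-natal day 14 (P14), with 6 pups in each of 3 groups. SAL pups were the saline controls. PNO pups were exposed to oxycodone (oxy) after birth only, through dams gavaged with 15 mg/kg/day from parturition until weaning. IUO pups were exposed in utero and after birth: their dams received 10 mg/kg/day for 5 days, then steps of 0.5 mg/kg/day over 10 days up to 15 mg/kg/day, before mating, and dosing went on through gestation until weaning. Exposure in both oxy groups came through the dam, and the labels name neither the litter nor the sex of a pup, so each p-value measures the spread between these pups only.

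At a synapse, presynaptic neurexins and LAR-type receptor phosphatases bind postsynaptic partners such as neuroligins, LRRTMs, Slitrks and SALMs, and these contacts help to place and specify the synapse. Beneath the postsynaptic membrane, MAGUK proteins hold receptors and adhesion molecules, SAPAPs join the MAGUKs to Shanks, and Shanks bind Homers, which reach metabotropic receptors and internal calcium stores. CaMKII is the calcium-activated kinase of the same density. Synapses form intensely in rat cortex around this age, and the groups were compared at this age for effects of early-life oxy.

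Libraries held between 18381819 and 26084780 expected counts. All 6 genes fixed as markers of the cortical label were detected in every pup, with a lowest single value of 9.5 TPM (a level scaled for transcript length and library depth), and the 12 neuron markers summed to between 4459 and 6503 TPM. Markers of neighbouring tissue differed widely between pups. The 11 striatal markers summed to between 178 and 1695 TPM, 1 of them at 0 in at least 1 pup. The 7 choroid plexus markers summed to between 8.39 and 2696 TPM and exceeded 500 TPM in 5 pups (SAL1, SAL3, PNO1, PNO3 and IUO6). The 10 myelin markers summed to a median of 4718 TPM in SAL (range 1494 to 5798), 6978 TPM in PNO (2284 to 11892) and 2200 TPM in IUO (1763 to 4054). Mitochondrial genes took 7.31 to 16.3% of expected counts in SAL, 8.04 to 13.7% in PNO and 6.96 to 12.5% in IUO. SAL4 had the highest share, IUO5 and SAL6 the lowest, and PNO1 had the highest choroid plexus and myelin sums. In bulk tissue, fewer cells of a type and less RNA per cell cannot be told apart.

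Most members were well expressed. Over the 18 pups, the median of the 44 mean levels was 36.3 TPM, beside 15.6 TPM over the 14860 rows that averaged at least 1 TPM. Of the 44, 9 averaged above 100 TPM, 31 lay between 10 and 100 TPM, and 4 were below 10 TPM. TPM is scaled by transcript length, so levels of different genes are set side by side on this scale only.

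Among the scaffolds and the kinase, Camk2b, the CaMKII beta subunit, had the highest mean of all members at 450.3 ± 82.3 TPM (SD over 18 pups), and Camk2a, the alpha subunit, averaged 267 ± 127 TPM. Dlg4, which encodes PSD-95, averaged 413 ± 83.2 TPM and made up 69.6% of the summed MAGUK level, ahead of Dlg3 (SAP102) at 92.4 TPM, Dlg2 (chapsyn) at 59.4 TPM and Dlg1 (SAP97) at 29.0 TPM. The SAPAP scaffolds were led by Dlgap3 at 114 TPM and Dlgap4 at 87.9 TPM, with Dlgap1 at 48.3 TPM and Dlgap2 at 9.25 TPM. Shank3 held 51.9% of the Shank level at 121 TPM, followed by Shank1 at 75.9 TPM and Shank2 at 39.6 TPM. Homer1 averaged 36.3 TPM, Homer3 14.9 TPM and Homer2 9.79 TPM. On average, a single gene held more than the other listed members of its family together among MAGUKs, Shanks, Homers and CaMKII. Dlgap3 held 44.5% of the SAPAP level. Shares are of the listed members only, and Camk2d and Camk2g were not in the CaMKII sum.

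Among the adhesion molecules, the calsyntenins Clstn1 and Clstn3, cadherin-type proteins of synaptic membranes, averaged 427 ± 66.5 TPM and 219.6 ± 30.5 TPM, whereas Clstn2 averaged 10.4 TPM. Nrxn2 stood at 209.7 ± 35.5 TPM and Nrxn3 at 32.7 TPM. Of the neuroligins, Nlgn2, which is enriched at inhibitory synapses, averaged 77.6 TPM, Nlgn3 61.7 TPM and Nlgn1, which is enriched at excitatory synapses, 24.6 TPM. The receptor phosphatase Ptprs averaged 173 ± 29.8 TPM, Ptprd 49.8 TPM and Ptprf 36.2 TPM. The 14 leucine-rich-repeat and Slitrk proteins spread more evenly, and the highest share of their summed level that 1 of them held in any pup was 17.25%. Lrrc4c (the netrin-G1 ligand) led them at 58.6 TPM, then Lrrtm1 at 45.02 TPM, Lrfn1 at 35.1 TPM, Lrfn5 at 34.0 TPM, Lrrc4 at 31.2 TPM and Slitrk1 at 28.3 TPM. Lrrtm4 averaged 24.5 TPM, Lrrtm3 22.5 TPM, Lrrtm2 22.2 TPM, Lrfn3 21.7 TPM, Slitrk5 20.9 TPM and Lrfn2 18.1 TPM. Slitrk3, a partner of Ptprd at inhibitory synapses, averaged 12.6 TPM and Slitrk2 5.22 TPM. Cntnap2, an axonal adhesion protein of the neurexin superfamily, averaged 43.8 TPM, the secreted neurexin ligand Cbln4 11.6 TPM, and Il1rapl1, another Ptprd partner, 2.24 TPM, the lowest of the 44. Cbln4 and Il1rapl1 also had the highest ratios of the highest to the lowest pup. Cbln4 ran from 1.97 to 31.8 TPM (16.1-fold) and Il1rapl1 from 0.410 to 8.54 TPM (20.8-fold).

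**Figure D1:**
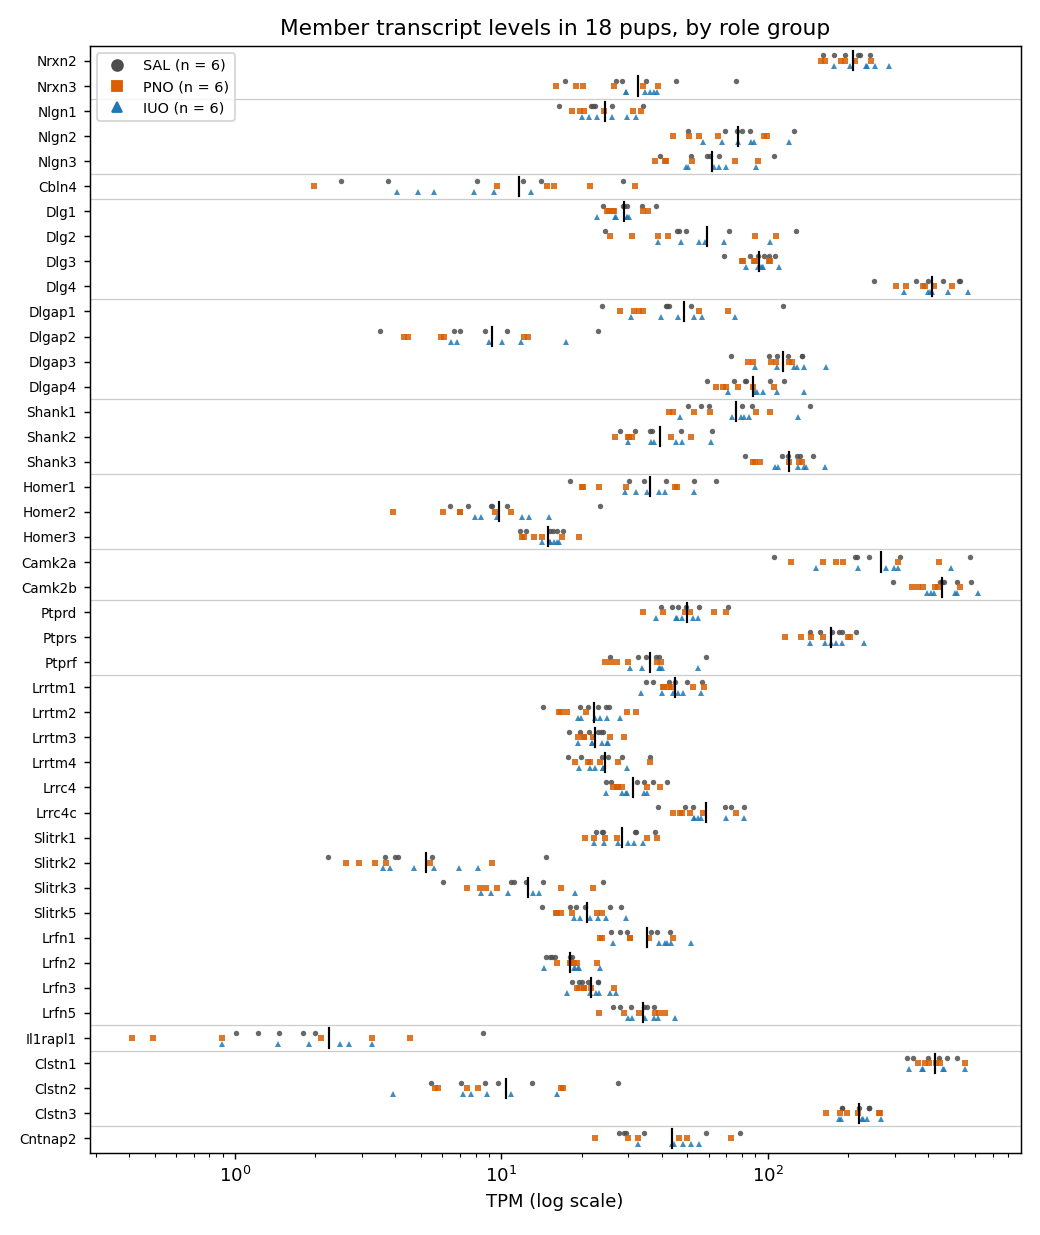
TPM (log axis) of each of the 44 members in each of the 18 pups, with SAL as grey circles, PNO as orange squares and IUO as blue triangles, and the mean over 18 pups as a black bar. Members are ordered by role group, separated by thin lines, and run from Il1rapl1 at a mean of 2.24 TPM to Camk2b at 450.3 TPM.

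Promoter sequence is shown for 4 members that carry the same letters upstream of their start. They were picked because 2 of them (Clstn2 and Slitrk2) varied widely across the pups and 2 (Clstn3 and Ptprs) varied little. Whether the letters relate to the spread was not tested. The letters TGACGTCA, the full cAMP response element, were searched in the 250 bases before each annotated start. They read the same on both strands and no other motif was searched. RefSeq's GRCr8 table held 38 such windows for 36 of the 44 members, and 5 members had the motif (Clstn2, Clstn3, Lrrtm2, Ptprs and Slitrk2), each in 1 window. That is 13.2% of the member windows, beside 1.59% of all 33469 windows in the table. A match is a description of these letters and was not tested as a binding site. Each line gives 120 bases, 5′ to 3′ on the gene's strand, with the motif in capitals, 53, 44, 144 and 47 bases before the start in turn.
Clstn2, chr8:107516403-107516522, minus strand: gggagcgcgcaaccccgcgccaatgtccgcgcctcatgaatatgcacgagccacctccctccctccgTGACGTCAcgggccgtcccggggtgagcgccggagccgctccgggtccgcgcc
Slitrk2, chrX:150291471-150291590, plus strand: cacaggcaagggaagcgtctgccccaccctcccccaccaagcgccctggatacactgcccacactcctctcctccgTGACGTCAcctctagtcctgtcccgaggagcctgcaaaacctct
Clstn3, chr4:159051150-159051269, minus strand: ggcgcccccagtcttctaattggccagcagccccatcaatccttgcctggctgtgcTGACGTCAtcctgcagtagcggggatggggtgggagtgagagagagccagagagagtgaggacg
Ptprs, chr9:1394092-1394211, minus strand: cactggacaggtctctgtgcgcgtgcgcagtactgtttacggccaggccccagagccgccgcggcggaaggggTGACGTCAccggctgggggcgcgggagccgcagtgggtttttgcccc

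The main question was whether the levels of these genes differed between oxy-exposed and SAL pups, or between the 2 kinds of exposure. No member passed the test in any comparison after adjustment over the 15703 genes tested (edgeR's quasi-likelihood test with Benjamini-Hochberg adjustment), and all 44 members were among the genes tested. The smallest adjusted p of a member was 0.912 in the PNO to SAL comparison, 0.762 in the IUO to SAL comparison, and 0.276 between the oxy groups. Log2 fold changes give the first-named group relative to the second. At an adjusted p under 0.05 the share of all genes called was 0% for each oxy group relative to SAL and 0.0637% between the oxy groups, and 0.00637% in the test of any difference among the groups. DESeq2 called 0 members in each of the 3 comparisons, beside 0.00637%, 0.312% and 2.78% of all genes in the same order. limma-voom with sample quality weights called 1 member, Ptprf in IUO against PNO, where it called 12.9% of all genes, beside 0% and 0.274% in the comparisons with SAL.

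In PNO against SAL, 17 of the 44 members had a fitted log2 fold change above 0 (50.8% of all genes did) and 27 below, with a median of -0.03 beside 0.003 over all genes. Lrfn2 alone had an unadjusted p under 0.05, with higher values in PNO, which is 2.27% of the members beside 4.5% of all genes (1.89% in the higher direction). DESeq2 gave 3 members there (Homer2, Lrrtm3 and Lrfn2) and limma-voom 1, beside 796 and 1050 of all genes. In IUO against SAL, 32 members were above 0 (48% of all genes) and 12 below, with a median of 0.06 beside -0.007 over all genes. No member had an unadjusted p under 0.05 there, beside 6.88% of all genes, and DESeq2 also gave 0, whereas limma-voom gave 6 members (Nrxn2, Dlgap4, Slitrk5, Lrfn1, Lrfn2 and Lrfn3) beside 2717 of all genes. In IUO against PNO, 29 members were above 0 (49.9% of all genes) and 15 below, with a median of 0.11 beside -0.0005. Lrfn1, Ptprf and Homer2 had an unadjusted p under 0.05, all with higher values in IUO, which is 6.82% of the members beside 15.3% of all genes (6.14% in the higher direction). DESeq2 gave 4 members there and limma-voom 19, beside 2569 and 5333 of all genes. These 3 comparisons share pups, so their counts are not independent of each other. In no comparison were the 2 groups' ranges of any member apart, and over all genes that happened for 0.108%, 0.745% and 1.66% in the same order.

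The intervals show what sizes of change the data leave possible. The 95% interval of the fold change lay within 1.5-fold either way for 31 members when PNO was set against SAL, for 35 when IUO was, and for 30 between the oxy groups. It lay within 2-fold for 42, 41 and 41. Wider intervals were those of Cbln4 and Il1rapl1 in every comparison, Clstn2 in IUO against SAL, and Dlgap2 in IUO against PNO. The side of 0 on which most members fell changed with the covariate in the model. With the myelin marker score as a covariate, the median log2 fold change was 0.11 for PNO and -0.06 for IUO relative to SAL, and -0.15 for IUO relative to PNO, where 6 of 44 members were then above 0. The score, a mean of log2 CPM, ran from 6.28 to 7.65 in IUO and from 6.80 to 9.21 in PNO. Group and score therefore cannot be fully told apart in this fit. In that fit, 5 members had an unadjusted p under 0.05 for PNO against SAL (Nlgn1, Lrrtm1, Lrrtm3, Lrrtm4 and Lrfn2), beside 510 of the 15703 genes, and 6 for IUO against PNO (Homer3, Lrrtm1, Lrrtm4, Lrrc4, Slitrk1 and Clstn2), beside 1444. With the neuron marker score as a covariate, the median for IUO against SAL was -0.02 and 18 of 44 members were above 0. Without the 5 pups rich in choroid plexus markers, added after seeing the data, it was -0.01 with 20 above 0. With the mitochondrial share as a covariate, an alternative added after seeing the data, the 3 medians were 0.0099, 0.0103 and 0.0094. Single pups mattered as well: the median for IUO against SAL was -0.04 without IUO5, and the median for PNO against SAL was 0.03 without SAL6 or SAL5 and 0.002 without PNO6.

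**Figure D2:**
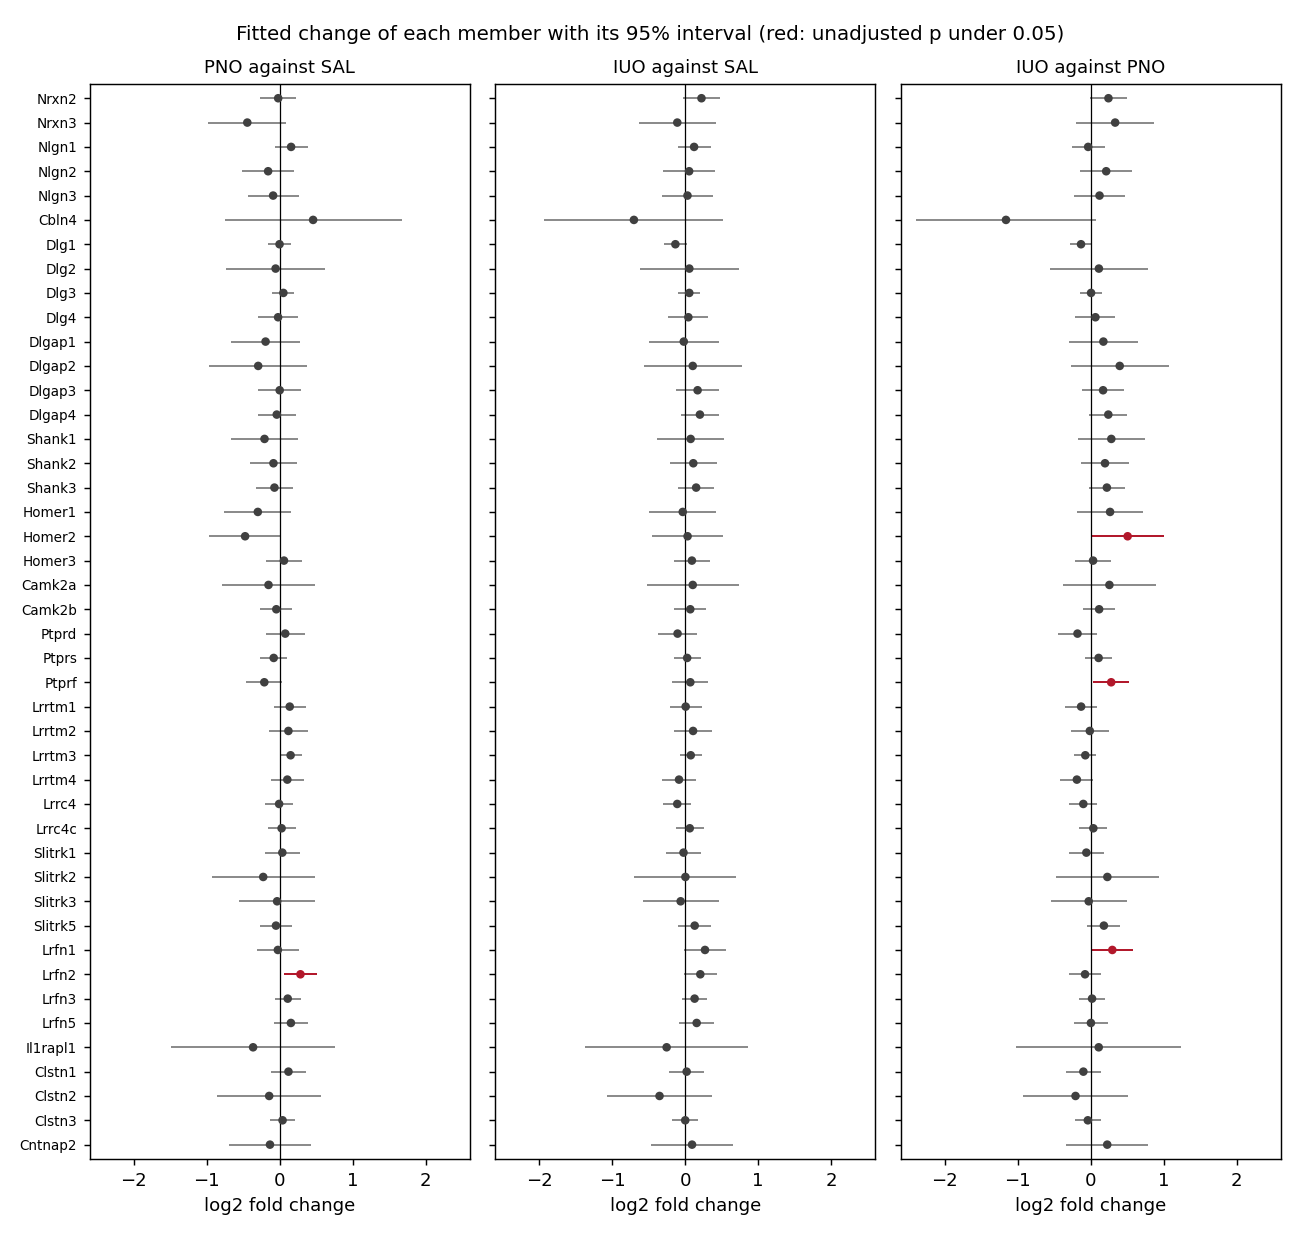
Fitted log2 fold change (points) and 95% interval (lines) of each of the 44 members in panels for PNO relative to SAL, IUO relative to SAL and IUO relative to PNO, from one edgeR model over 18 pups. Red marks an unadjusted p under 0.05: Lrfn2 in the first panel, none in the second, and Homer2, Ptprf and Lrfn1 in the third.

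The neurexins and neuroligins had overlapping values in all groups. CPM (counts scaled to library size by TMM, which compare a gene with itself across pups) are given as the lowest, median and highest of 6 pups. Nrxn2, the main neurexin measured here, stood at 461, 531 and 609.8 CPM in SAL, 446, 535 and 630.2 CPM in PNO and 467, 642 and 765 CPM in IUO. Most IUO pups lay in the upper part of the joint range. Its log2 fold changes were -0.02 (SE 0.12, adjusted p = 0.98) for PNO and 0.22 (SE 0.12, adjusted p = 0.783) for IUO relative to SAL, and 0.24 (SE 0.12, adjusted p = 0.335) for IUO relative to PNO. With the myelin marker score as a covariate, the Nrxn2 value for IUO was 0.10 relative to SAL and -0.02 relative to PNO. Nrxn3 ranged more widely, and its log2 fold change for PNO against SAL was -0.44 (SE 0.25, adjusted p = 0.912). That value was -0.15 without SAL6, -0.60 without PNO1 and -0.12 with the myelin marker score as a covariate. Nlgn2 stood at 143, 183 and 254 CPM in SAL, 125, 160.0 and 227 CPM in PNO and 141, 198 and 267 CPM in IUO, and the groups covered much the same range. For Nlgn2 the log2 fold changes were -0.16 (SE 0.17, adjusted p = 0.914) for PNO and 0.05 (SE 0.17, adjusted p = 0.996) for IUO relative to SAL, and 0.21 (SE 0.17, adjusted p = 0.567) for IUO relative to PNO. Nlgn1, with the smallest p of the neuroligins, stood at 62.9, 70.0 and 85.1 CPM in SAL, 67.0, 78.9 and 94.8 CPM in PNO and 64.9, 77.7 and 95.5 CPM in IUO. Its values gave log2 fold changes of 0.16 (SE 0.11, adjusted p = 0.912) for PNO and 0.12 (SE 0.11, adjusted p = 0.94) for IUO relative to SAL, and -0.03 (SE 0.11, adjusted p = 0.897) for IUO relative to PNO.

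Cbln4, which bridges presynaptic neurexins to postsynaptic receptors and is made by a subset of neurons including somatostatin interneurons, was the most variable member. It stood at 4.40, 16.3 and 61.1 CPM in SAL, 3.98, 25.0 and 60.4 CPM in PNO and 6.58, 11.8 and 23.5 CPM in IUO. Single pups of the same group differed by over 10-fold in SAL and PNO, and the IUO values lay within the range of both other groups. The log2 fold changes were 0.46 (SE 0.58, adjusted p = 0.918) for PNO and -0.70 (SE 0.58, adjusted p = 0.924) for IUO relative to SAL, and -1.16 (SE 0.59, adjusted p = 0.358) for IUO relative to PNO. Single pups moved these values widely: the log2 fold change of Cbln4 for PNO against SAL ran from 0.12 without PNO6 to 1.11 without SAL4, and that for IUO against SAL was -0.05 without SAL4. With the 5 pups rich in choroid plexus markers left out, an alternative added after seeing the data, the log2 fold change of Cbln4 was -1.23 (adjusted p = 0.616) for IUO against SAL and -1.75 (adjusted p = 0.204) for IUO against PNO.

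The LAR-type receptor phosphatases organise presynaptic terminals. Ptprs, the most abundant, stood at 451, 504 and 541 CPM in SAL, 377, 483 and 543 CPM in PNO and 435, 516 and 600.4 CPM in IUO, a narrow spread in each group. Its log2 fold changes were -0.08 (SE 0.09, adjusted p = 0.914) for PNO and 0.03 (SE 0.09, adjusted p = 0.996) for IUO relative to SAL, and 0.11 (SE 0.09, adjusted p = 0.573) for IUO relative to PNO. Ptprf (LAR) stood at 142, 164 and 227 CPM in SAL, 132, 146 and 173 CPM in PNO and 145, 182 and 229.9 CPM in IUO. PNO values were the lowest on the whole, and 4 IUO pups and 2 SAL pups lay above the highest PNO pup, but all ranges overlapped. The log2 fold changes of Ptprf were -0.21 (SE 0.12, adjusted p = 0.912) for PNO and 0.07 (SE 0.12, adjusted p = 0.995) for IUO relative to SAL, and 0.28 (SE 0.12, adjusted p = 0.276) for IUO relative to PNO. Its adjusted p for IUO against PNO was 0.276, with a range of 0.0353 (limma-voom) to 0.98 over 31 alternatives. The fold change was -0.02 with the myelin marker score as a covariate. The summed myelin markers had a median of 2200 TPM in IUO and 6978 TPM in PNO.

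The leucine-rich-repeat proteins held the smallest p of each comparison with SAL. Lrfn2 (SALM1), which binds PSD-95, stood at 21.5, 27.0 and 31.4 CPM in SAL, 27.7, 34.1 and 35.7 CPM in PNO and 24.7, 31.6 and 35.3 CPM in IUO. Of the 6 PNO pups, 4 lay above the highest SAL pup and 2 within the SAL range. The log2 fold changes of Lrfn2 were 0.28 (SE 0.11, adjusted p = 0.912) for PNO and 0.21 (SE 0.11, adjusted p = 0.765) for IUO relative to SAL, and -0.08 (SE 0.11, adjusted p = 0.745) for IUO relative to PNO. Its unadjusted p for PNO against SAL stayed under 0.05 in all 31 alternatives (0.00568 to 0.0405), and its adjusted p was never under 0.536. The 31 include fits that left out only an IUO pup and so kept every pup of this comparison. Lrfn1 (SALM2), an excitatory synapse protein, stood at 40.7, 48.1 and 66.9 CPM in SAL, 40.5, 49.5 and 63.8 CPM in PNO and 41.5, 64.2 and 71.8 CPM in IUO. IUO2 was the lowest IUO pup, and the other 5 IUO pups lay at or above 60.2 CPM, where 1 SAL pup and 1 PNO pup also lay. Lrfn1 gave log2 fold changes of -0.02 (SE 0.14, adjusted p = 0.98) for PNO and 0.27 (SE 0.14, adjusted p = 0.762) for IUO relative to SAL, and 0.30 (SE 0.14, adjusted p = 0.315) for IUO relative to PNO. Without IUO2 they were 0.35 (adjusted p = 0.58) relative to SAL and 0.38 (adjusted p = 0.194) relative to PNO for IUO, both with an unadjusted p under 0.05. With the myelin marker score as a covariate, the value of Lrfn1 for IUO against PNO was 0.07 and its unadjusted p was above 0.05. That score was itself lower on the whole in IUO than in PNO. Without PNO2, PNO3, PNO4 or IUO5, none of Lrfn1, Ptprf and Homer2 had an unadjusted p under 0.05 for IUO against PNO. Of the 18 fits that left out 1 pup, 6 kept it under 0.05 for Lrfn1, 9 for Homer2 and 14 for Ptprf. The 18 include the fits without a SAL pup, which kept every pup of this comparison. Lrrc4c, the most abundant of the group, stood at 61.3, 71.3 and 85.5 CPM in SAL, 65.7, 69.4 and 92.4 CPM in PNO and 69.4, 72.6 and 83.0 CPM in IUO, with log2 fold changes of 0.03 (SE 0.09, adjusted p = 0.965) for PNO and 0.06 (SE 0.09, adjusted p = 0.989) for IUO relative to SAL, and 0.04 (SE 0.09, adjusted p = 0.866) for IUO relative to PNO. Lrrtm3 had a log2 fold change of 0.15 (SE 0.07, adjusted p = 0.912) for PNO against SAL and Lrrtm4 of -0.19 (SE 0.11, adjusted p = 0.415) for IUO against PNO. The remaining members of the group had unadjusted p-values above 0.1 in every comparison.

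Il1rapl1, the least abundant member, stood at 1.58, 2.06 and 9.44 CPM in SAL, 0.633, 2.14 and 5.34 CPM in PNO and 1.18, 2.86 and 3.90 CPM in IUO. SAL6 was far above the other SAL pups, and the log2 fold changes were -0.36 (SE 0.53, adjusted p = 0.921) for PNO and -0.25 (SE 0.53, adjusted p = 0.996) for IUO relative to SAL, and 0.11 (SE 0.54, adjusted p = 0.936) for IUO relative to PNO. Without SAL6, the values of Il1rapl1 relative to SAL turned to 0.33 for PNO and 0.44 for IUO. The calsyntenin Clstn1 stood at 868, 1107 and 1421 CPM in SAL, 1062, 1221 and 1412 CPM in PNO and 953, 1136 and 1361 CPM in IUO, with full overlap of the groups and log2 fold changes of 0.12 (SE 0.11, adjusted p = 0.912) for PNO and 0.02 (SE 0.11, adjusted p = 0.996) for IUO relative to SAL, and -0.10 (SE 0.11, adjusted p = 0.693) for IUO relative to PNO. Clstn2 and Clstn3 had unadjusted p-values above 0.1 in every comparison. Cntnap2 stood at 26.6, 32.9 and 70.2 CPM in SAL, 22.2, 33.8 and 61.1 CPM in PNO and 28.3, 45.3 and 50.2 CPM in IUO, and its log2 fold changes were -0.13 (SE 0.27, adjusted p = 0.939) for PNO and 0.09 (SE 0.27, adjusted p = 0.996) for IUO relative to SAL, and 0.23 (SE 0.27, adjusted p = 0.702) for IUO relative to PNO. Leaving out 1 pup moved the Cntnap2 value from -0.35 to 0.10 for PNO and from 0.001 to 0.33 for IUO, both relative to SAL.

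Among the scaffolds, Dlg4 stood at 560.0, 769 and 998 CPM in SAL, 599, 762 and 861 CPM in PNO and 625, 765 and 949 CPM in IUO. The 3 medians were closer to each other than the lowest and highest pup of any group were. The log2 fold changes of Dlg4 were -0.02 (SE 0.13, adjusted p = 0.98) for PNO and 0.04 (SE 0.13, adjusted p = 0.996) for IUO relative to SAL, and 0.07 (SE 0.13, adjusted p = 0.83) for IUO relative to PNO. Dlg3 stood at 198, 235 and 257 CPM in SAL, 215, 248 and 258 CPM in PNO and 221, 239 and 271 CPM in IUO, with log2 fold changes of 0.05 (SE 0.07, adjusted p = 0.92) for PNO and 0.06 (SE 0.07, adjusted p = 0.982) for IUO relative to SAL, and 0.01 (SE 0.07, adjusted p = 0.977) for IUO relative to PNO, and was one of the least variable members. Dlg1, with the smallest p of the MAGUKs, stood at 63.3, 66.8 and 80.0 CPM in SAL, 61.6, 70.1 and 77.7 CPM in PNO and 53.7, 63.4 and 70.7 CPM in IUO. IUO values were the lowest on the whole but overlapped both other groups, and the log2 fold changes were -0.00 (SE 0.07, adjusted p = 0.996) for PNO and -0.13 (SE 0.07, adjusted p = 0.806) for IUO relative to SAL, and -0.13 (SE 0.07, adjusted p = 0.407) for IUO relative to PNO.

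The SAPAP Dlgap3 stood at 198, 235 and 311 CPM in SAL, 205, 243 and 318 CPM in PNO and 209.9, 285 and 343 CPM in IUO. Its log2 fold changes were 0.00 (SE 0.14, adjusted p = 0.999) for PNO and 0.17 (SE 0.14, adjusted p = 0.919) for IUO relative to SAL, and 0.17 (SE 0.14, adjusted p = 0.574) for IUO relative to PNO. Dlgap4 stood at 144, 166 and 213 CPM in SAL, 140.1, 161 and 204 CPM in PNO and 149, 192 and 254 CPM in IUO, the IUO median being the highest of 3 overlapping ranges. It gave log2 fold changes of -0.04 (SE 0.12, adjusted p = 0.962) for PNO and 0.20 (SE 0.12, adjusted p = 0.847) for IUO relative to SAL, and 0.24 (SE 0.12, adjusted p = 0.363) for IUO relative to PNO. With the myelin marker score as a covariate, the Dlgap4 value for IUO was 0.08 relative to SAL and -0.02 relative to PNO. Shank3, which joins the SAPAP layer to Homer and actin, stood at 162, 213 and 245 CPM in SAL, 166, 199 and 235 CPM in PNO and 189, 243 and 276 CPM in IUO, and its log2 fold changes were -0.07 (SE 0.12, adjusted p = 0.922) for PNO and 0.15 (SE 0.12, adjusted p = 0.912) for IUO relative to SAL, and 0.22 (SE 0.12, adjusted p = 0.385) for IUO relative to PNO. Dlgap1, Dlgap2, Shank1 and Shank2 had unadjusted p-values above 0.1 in every comparison.

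The Homers differed among themselves. Homer1 stood at 20.1, 35.9 and 51.5 CPM in SAL, 21.4, 28.3 and 40.8 CPM in PNO and 28.6, 36.0 and 46.3 CPM in IUO, with log2 fold changes of -0.30 (SE 0.22, adjusted p = 0.912) for PNO and -0.03 (SE 0.22, adjusted p = 0.997) for IUO relative to SAL, and 0.27 (SE 0.22, adjusted p = 0.575) for IUO relative to PNO. Homer2 stood at 9.21, 10.8 and 23.7 CPM in SAL, 5.34, 9.22 and 12.3 CPM in PNO and 9.77, 13.2 and 16.5 CPM in IUO. SAL6 stood far above the other SAL pups, and PNO held both the lowest pup and the lowest median. For Homer2 the log2 fold changes were -0.47 (SE 0.23, adjusted p = 0.912) for PNO and 0.03 (SE 0.23, adjusted p = 0.997) for IUO relative to SAL, and 0.51 (SE 0.23, adjusted p = 0.315) for IUO relative to PNO. Without SAL6, the values of Homer2 relative to SAL were -0.20 for PNO and 0.30 for IUO. Its value for IUO against PNO was 0.002 with the myelin marker score as a covariate, a score that was itself lower on the whole in IUO. Homer3 had unadjusted p-values above 0.1 in every comparison. Camk2a stood at 113, 199.9 and 433 CPM in SAL, 125, 184 and 354 CPM in PNO and 141, 257 and 397 CPM in IUO, a wide spread in each group, with log2 fold changes of -0.15 (SE 0.30, adjusted p = 0.939) for PNO and 0.10 (SE 0.30, adjusted p = 0.996) for IUO relative to SAL, and 0.26 (SE 0.30, adjusted p = 0.698) for IUO relative to PNO. Leaving out 1 pup moved the Camk2a value from -0.36 to 0.10 for PNO and from -0.08 to 0.36 for IUO, both relative to SAL. Camk2b varied less, at 842, 1063 and 1239.7 CPM in SAL, 882, 1022 and 1185 CPM in PNO and 969, 1087 and 1332 CPM in IUO, with log2 fold changes of -0.05 (SE 0.10, adjusted p = 0.946) for PNO and 0.07 (SE 0.10, adjusted p = 0.989) for IUO relative to SAL, and 0.12 (SE 0.10, adjusted p = 0.612) for IUO relative to PNO.

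Ratios between partners were compared because each pair shifts as synapses mature, Camk2a relative to Camk2b and Dlg4 relative to Dlg3, and because library size cancels within a pup. The ratio of Camk2a to Camk2b TPM was 0.573 ± 0.218 (SD) in SAL, 0.555 ± 0.243 in PNO and 0.592 ± 0.137 in IUO. It ran from 0.356 to 0.984 in SAL, from 0.334 to 1.01 in PNO and from 0.384 to 0.788 in IUO, so the groups overlapped almost fully. Differences in mean log2 ratio were -0.07 for PNO and 0.09 for IUO relative to SAL, and 0.15 for IUO relative to PNO (exact permutation p of 0.812, 0.729 and 0.584). The ratio of Dlg4 to Dlg3 TPM was 4.52 ± 0.644 in SAL, 4.27 ± 0.368 in PNO and 4.52 ± 0.594 in IUO. Its differences in mean log2 ratio were -0.08, -0.0008 and 0.08 (exact permutation p of 0.452, 0.996 and 0.452). All 6 adjusted p-values were 0.974 or above, in two-sided tests whose smallest possible p was 0.00216. These differences were smaller than the spread between pups of a group.

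**Figure D3:**
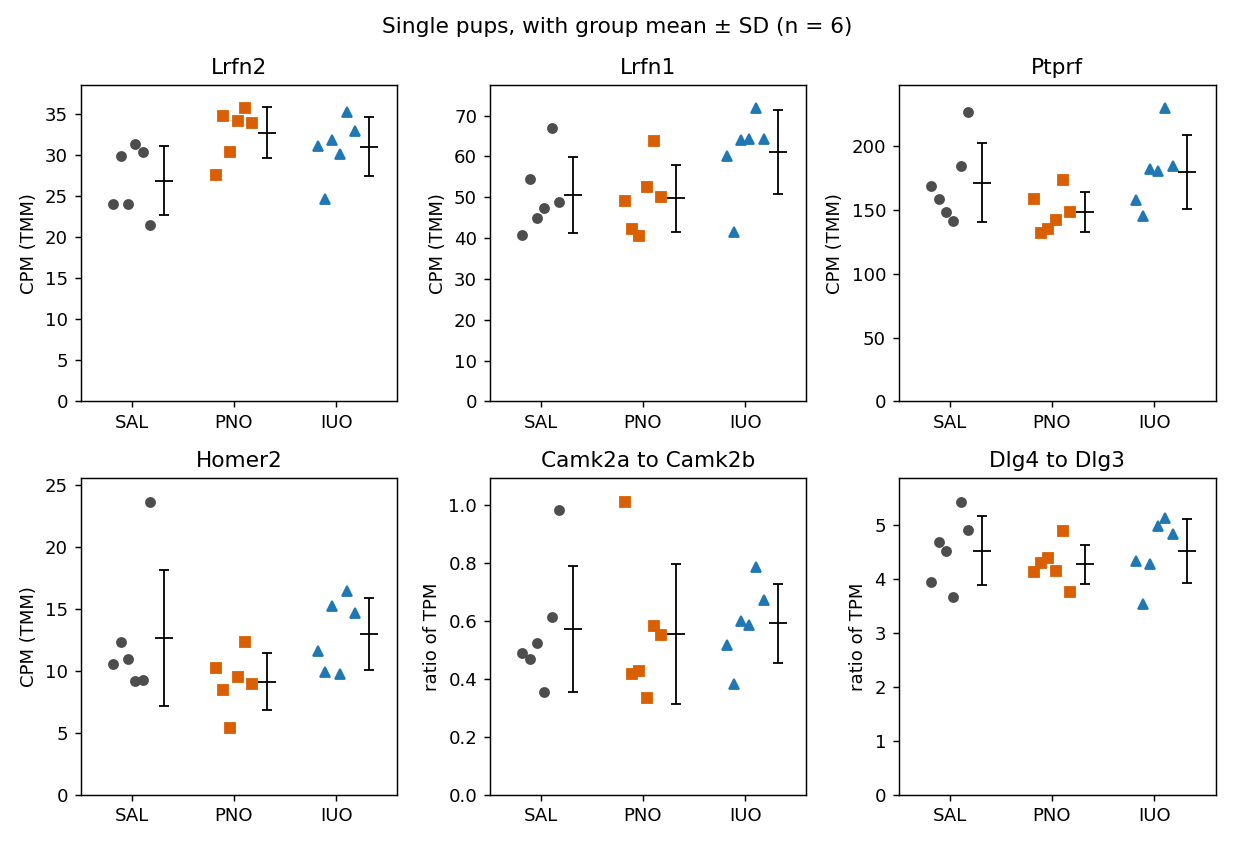
TMM-scaled CPM of Lrfn2, Lrfn1, Ptprf and Homer2 and the TPM ratios Camk2a to Camk2b and Dlg4 to Dlg3 in single pups of SAL (grey circles), PNO (orange squares) and IUO (blue triangles), with the group mean ± SD of 6 pups in black. Groups overlap in every panel, and SAL6 (Homer2 at 23.7 CPM) and PNO1 (Camk2a to Camk2b at 1.01) stand apart from the rest of their groups.

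Pups of the same group differed widely in part of the members, and most pairs of members had a positive correlation across pups. The SD of log2 CPM within groups ran from 0.12 for Lrrtm3 and Dlg3 (0.12) through a median of 0.23 (0.25 over all genes) to 0.56 for Camk2a, 0.60 for Dlg2, 0.62 for Clstn2, 0.97 for Il1rapl1 and 1.17 for Cbln4. Of the 946 pairs of members, 804 had a positive Pearson r over the 18 pups, with a median of 0.448 over all pairs. Pairs of other genes were not counted, so this count has no background beside it. Camk2a and Dlgap1 reached 0.966, Nlgn2 and Nlgn3 0.946, and Camk2a and Dlg2 0.944, whereas Camk2a and Camk2b had 0.636. The Homers were the family whose members went apart, with a median r of -0.168 over 3 pairs. These values are descriptions, and all points share the libraries.

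In TMM-scaled CPM, SAL6 had the highest value of 13 members, IUO5 of 12 and PNO5 of 8, while SAL4 had the lowest value of 16, SAL1 of 8 and PNO3 of 7. All 3 groups thus held pups at both ends: PNO5 was above the mean of 43 of the 44 members, IUO5 of 40 and SAL5 of 38, and SAL4 and SAL1 of 5, IUO2 of 8 and PNO4 of 9. For Camk2a the 6 SAL pups ran from 113 CPM in SAL4 to 433 CPM in SAL6. Dlg2 ran from 45.1 to 166 CPM over the same pair of pups, and Slitrk2 from 4.83 to 22.3 CPM.

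Several members fell along the mitochondrial share of the libraries, a measure looked at after seeing the data, so its values are descriptions with no test. The counts of members above the mean did not follow it pup by pup: SAL1, with 5 such members, had a share of 10.2%, and SAL5, with 38, had 10.6%. Camk2a had a Pearson r of -0.895 with the mitochondrial share over the 18 pups, the strongest of the 44 members, and a Spearman rho of -0.856. Dlg2 had r = -0.882 and rho = -0.866, and Homer1 r = -0.832 and rho = -0.763. Cbln4 had r = 0.452 and rho = 0.329. Without the 2 pups farthest from the median share (IUO5 and SAL4), r was -0.847 for Camk2a, -0.856 for Dlg2, -0.765 for Homer1 and 0.193 for Cbln4. Taken group by group (SAL, then PNO, then IUO), r was -0.863, -0.924 and -0.918 for Camk2a, -0.818, -0.919 and -0.981 for Dlg2, and -0.799, -0.919 and -0.779 for Homer1. Leaving the mitochondrial genes out of the library totals gave r = -0.895 for Camk2a, -0.882 for Dlg2 and -0.832 for Homer1.

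Over the whole list, 41 of the 44 members had a negative r with the mitochondrial share, with a median of -0.619. The median was 0.038 over all 15690 genes tested that are not mitochondrial, members included. An r below -0.6 was found for 24 members, beside 17.4% of all genes, and an r above 0.6 for 0 members, beside 14.3%. Among other genes of these pathways, 12 of 36 adhesion genes and 15 of 32 postsynaptic density genes also had an r below -0.6. Camk2a, Dlg2, Dlgap1, Dlgap2, Slitrk3, Nlgn3, Homer1 and Nlgn2 were below -0.8, beside 5.46% of all genes. The 3 with a positive r were Homer3 (0.142), Lrfn2 (0.248) and Cbln4. The mean transcript length of the library, from 1494 bases in SAL4 to 1860 bases in SAL6, had an r of -0.933 with the mitochondrial share, so the 2 measures cannot be told apart here. For mean transcript length, 23 members had an r above 0.6, beside 20.3% of all genes. Summed neuron markers were 4674 TPM in SAL4, 5888 TPM in SAL6 and 6503 TPM in IUO5. They were 4459 TPM in SAL1 and 6440 TPM in SAL5, whose mitochondrial shares were alike. The part of neuron markers in the pattern was not tested.

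**Figure D4:**
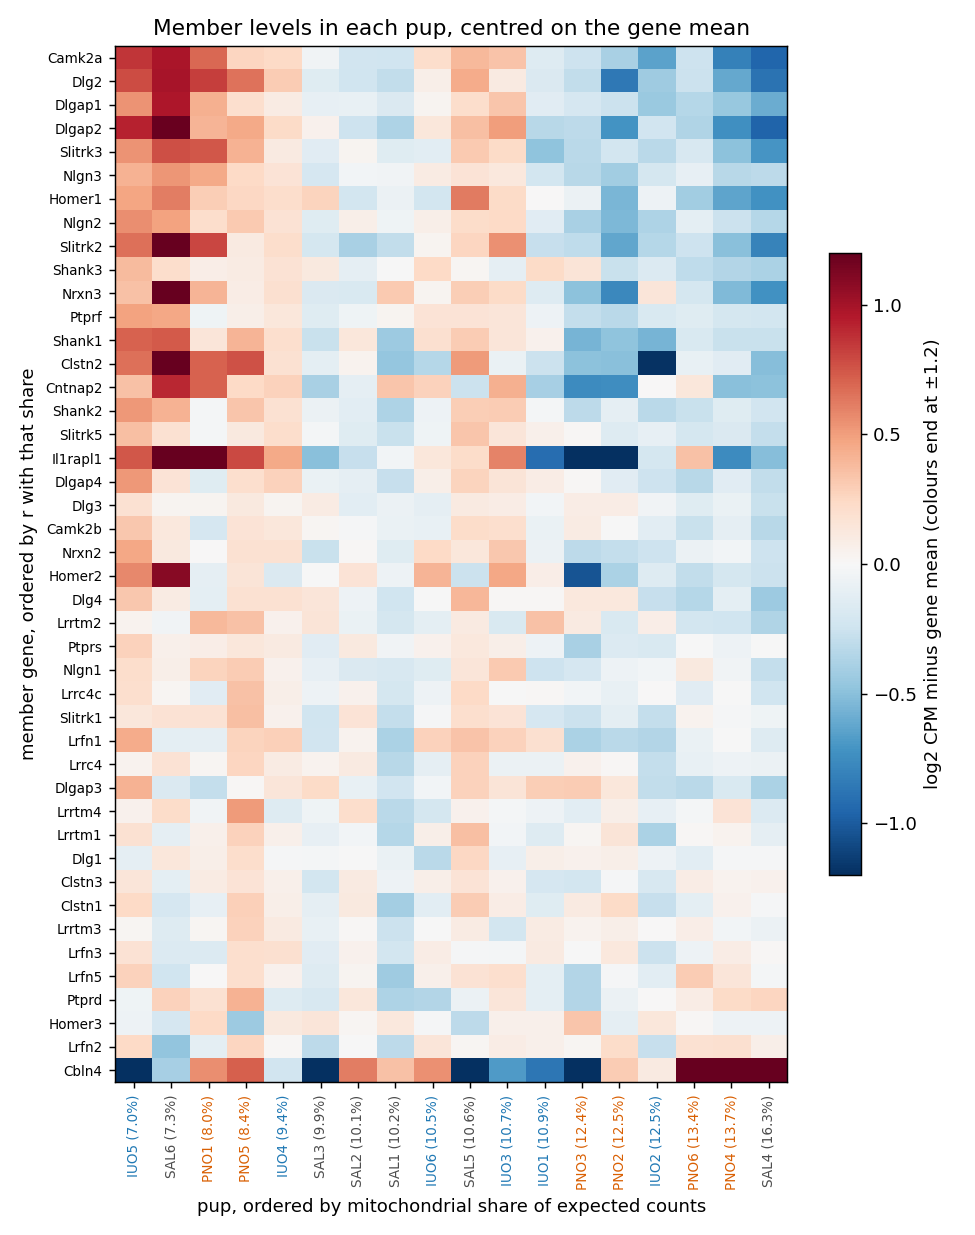
Log2 CPM of each member minus its mean over 18 pups (red above, blue below, colours end at ±1.2), with pups ordered by mitochondrial share of expected counts from IUO5 (6.96%) to SAL4 (16.3%) and label colours giving the group. Members at the top change from red to blue along the order, those in the lower rows vary little, and Cbln4 in the last row is blue in several pups at the left and red in the 3 pups at the right.

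**Figure D5:**
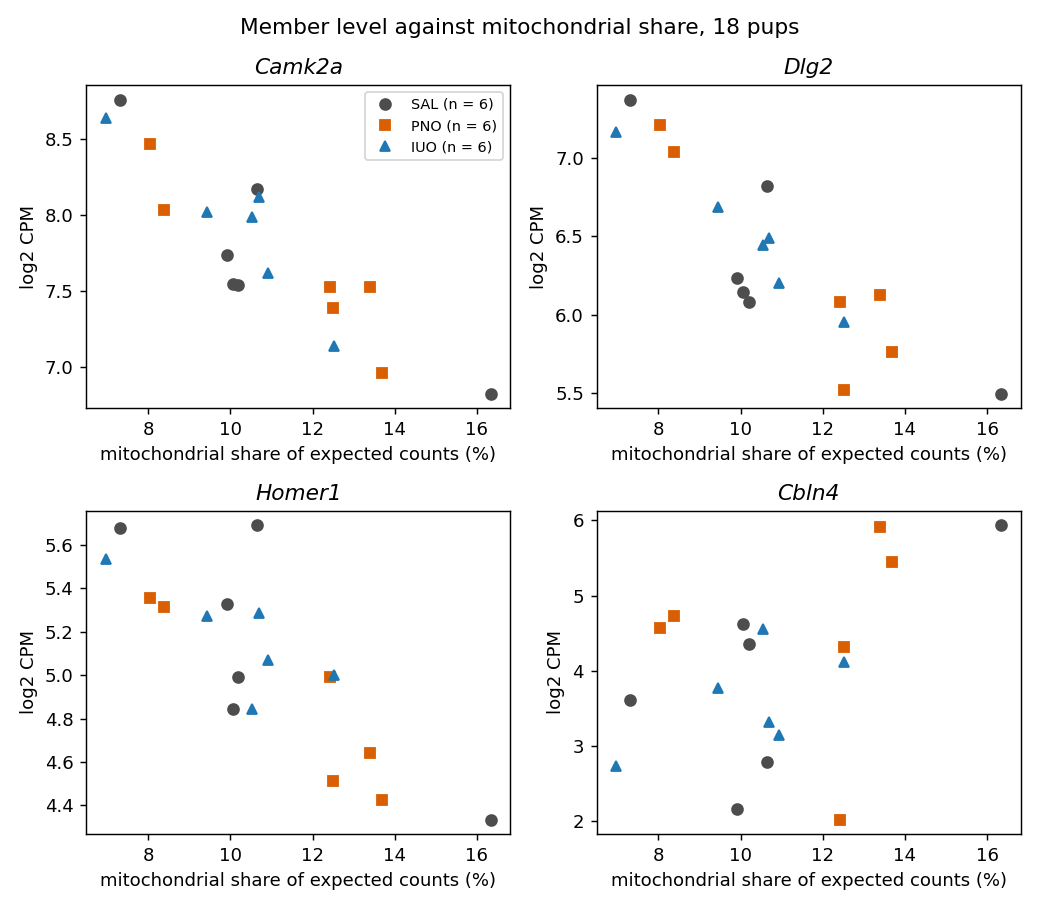
Log2 CPM of Camk2a, Dlg2, Homer1 and Cbln4 against the mitochondrial share of expected counts in 18 pups, by group. The first 3 genes fall along the share in all groups (r = -0.895, -0.882 and -0.832), and Cbln4 scatters (r = 0.452).

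The length assigned to a gene, an average over its transcripts weighted by their estimated levels, moved with the mitochondrial share in 5 members whose length range exceeded 15% of the mean. Nrxn2 ran from 3853 bases in PNO2 to 4786 bases in SAL6, with an r of -0.881 with the mitochondrial share. For Nrxn3 the length ran from 3597 to 4727 bases (r = -0.749), for Shank3 from 2642 to 3204 bases (r = -0.747), and for Cntnap2 from 1098 to 1763 bases (r = -0.690). Lrrc4c went the other way, from 1777 bases in SAL6 to 2209 bases in SAL3 (r = 0.529). No group difference in these lengths passed an exact permutation test, in 15 two-sided tests added after seeing the data. The smallest p was 0.0952, for Cntnap2 at 1384 ± 216 bases (SD) in PNO and 1607 ± 209 bases in SAL, and all adjusted p-values were 0.763 or above.

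Cell context was examined through 4 relations over the 18 pups. Homer1, whose gene also gives an activity-regulated short transcript, had r = 0.293 with the activity gene Arc (permutation p = 0.238, adjusted 0.424) and rho = 0.280 (p = 0.260). Cbln4 had r = 0.252 with Sst, the somatostatin gene (permutation p = 0.317, adjusted 0.424), and rho = 0.195 (p = 0.436). Camk2a had r = 0.266 with Slc17a7, the vesicular glutamate transporter of cortical excitatory neurons (permutation p = 0.286, adjusted 0.424), and rho = 0.224 (p = 0.371). Dlgap3, abundant in striatum, had r = 0.224 with the striatal marker score (permutation p = 0.367, adjusted 0.424) and rho = 0.232 (p = 0.352). Without the 2 pups farthest from the median of the other measure, r was 0.25, 0.295, 0.394 and 0.554 in the same order. Group by group in the order SAL, PNO, then IUO, r was 0.966, -0.042 and -0.024 for Homer1 with Arc, 0.413, -0.217 and -0.078 for Cbln4 with Sst, 0.327, -0.256 and 0.90 for Camk2a with Slc17a7, and 0.258, 0.339 and -0.496 for Dlgap3 with the striatal score. On log2 TPM in place of log2 CPM, the pooled r was 0.418, 0.137, 0.522 and 0.268 in the same order, so that of Camk2a with Slc17a7 depended on the scale. No pooled relation in log2 CPM passed adjustment over 8 tests, and signs differed between groups for each pair.

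Other genes of the same pathways were counted in the same fit. Of 36 other synaptic adhesion genes, 0 passed adjustment in any comparison. At an unadjusted p under 0.05, 0 were found in PNO against SAL, beside 4.5% of all genes, and 2 in IUO against SAL (both higher in IUO), which is 5.56% beside 6.88%. In IUO against PNO there were 4 (3 higher and 1 lower), which is 11.1% beside 15.3%. Adgrl2, a latrophilin receptor that binds teneurins, had a log2 fold change of 0.35 (SE 0.13, adjusted p = 0.584) for IUO against SAL and 0.48 (SE 0.13, adjusted p = 0.122) for IUO against PNO. Efnb2, an ephrin ligand, had 0.45 (SE 0.18, adjusted p = 0.638) and 0.60 (SE 0.18, adjusted p = 0.138) in the same order, and Efnb3 had 0.29 (SE 0.14, adjusted p = 0.321) for IUO against PNO. C1ql2, a secreted synaptic organiser, had -1.23 (SE 0.47, adjusted p = 0.23) for IUO against PNO. Of 32 other postsynaptic density genes, 0 passed adjustment, and 0, 1 and 4 had an unadjusted p under 0.05 in PNO against SAL, IUO against SAL and then between the oxy groups, beside the same shares of all genes. Begain, a PSD-95 binding protein, had a log2 fold change of 0.27 (SE 0.12, adjusted p = 0.674) for IUO against SAL and 0.26 (SE 0.12, adjusted p = 0.302) for IUO against PNO. Ppp3ca, a calcineurin subunit, Shisa7 and Agap2 had 0.34, 0.20 and 0.28 for IUO against PNO, with adjusted p-values of 0.321, 0.286 and 0.28. Those 4 genes, all higher in IUO, are 12.5% of the list, beside 15.3% of all genes in either direction and 6.14% in the higher direction.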

How the data were processed

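PFC RNA of 18 pups was sequenced as single-end libraries on one flow cell, as the authors' methods state. Per pup, the authors deposited a table of 32623 genes, each with its expected count, its TPM, its FPKM and its length weighted over transcripts. The quantifier, genome build and annotation are not given in the sources used here. The deposited FPKM values entered no result. Expected counts, estimated by the authors where reads fit several transcripts, were rounded to whole numbers, and 90.1 to 91.1% of the values were whole as deposited. The deposited TPM values were used for levels between genes, and the deposited lengths, in bases, were compared between pups.

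Genes with low counts were removed by edgeR's filterByExpr, leaving 15703, and 1 edgeR (version 4.0.16) quasi-likelihood model with TMM scaling was fitted over the 3 groups with 15 residual degrees of freedom. P-values are two-sided and adjusted by Benjamini-Hochberg over all genes tested. Log2 CPM used a prior count of 2. DESeq2 (version 1.42.0), limma-voom (version 3.58.1), other size factors, other filters, the 12 pups of a comparison alone, marker scores as covariates, a replicate block and leaving out each pup served as alternatives. The scripts were tested on simulated data. Ratios of TPM were compared by exact permutation over all splits of 12 pups, and correlations by 100000 permutations (scipy 1.17.1).

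The members and all gene lists were chosen with earlier results of these data known. The text gives full values for members with an unadjusted p under 0.05, for the most abundant and the smallest-p member of each of the 13 role groups, and for genes of the ratios and relations. Each pup had 18381819 or more expected counts. The lowest member value was 12 counts (Il1rapl1), where counting error is large. No 2 pups of a group had identical values, and the 45 pairs within groups all differed by more than sampling noise (chi-square of at least 11.2 per degree of freedom). Promoter sequences and starts are from RefSeq, build GRCr8.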

Additional observations from a re-analysis of the deposited data

Results flagged for a closer look

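Each of the 44 members and both ratios was checked in each group for a single pup far from the other 5, by the gap to the nearest pup as a share of the group's range. Of 138 groups of 6 pups, 6 exceeded the 95% limit of Dixon's test for 6 values, and chance alone would pass about 1 group in 20. Homer2 in SAL (0.691) and Il1rapl1 in SAL (0.709) were set apart by a high SAL6, at 4.57 against 3.63 for the next pup and 3.25 against 1.47 in log2 CPM. Lrrc4c in PNO (0.733) and Lrrtm3 in PNO (0.646) were set apart by a high PNO5, at 6.53 against 6.17 and 6.02 against 5.82. Lrrtm3 in IUO (0.649) had a low IUO3, at 5.53 against 5.74. Lrfn1 in IUO (0.679) had a low IUO2, at 5.38 against 5.91, and the fold changes of Lrfn1 in IUO were larger without this pup.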

How the results depend on the processing

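No member passed adjustment in any alternative except limma-voom with sample quality weights, which called 1 (Ptprf, IUO against PNO, adjusted p = 0.0353, at a log2 fold change of 0.31). Its value was -0.02 with the myelin marker score as a covariate, and the cause was not tested. At an unadjusted p under 0.05, the count of members ran from 1 to 5 for PNO against SAL (5 also with the myelin marker score, where 510 of 15703 genes passed), 0 to 6 for IUO against SAL and 0 to 19 for IUO against PNO, with 6 from limma-voom (2717 of 15703 genes) and from the striatal marker score as a covariate (1243 genes), and 19 from limma-voom (5333 genes). Leaving out 1 pup gave 1 to 5 (most without SAL4, where 1291 of 15788 genes passed), 0 to 5 (most without SAL5 or IUO2, where 1246 of 15805 and 1102 of 15799 did) and 0 to 6 (0 without PNO2, PNO4 or IUO5, 3 other members without PNO3, 1 without SAL2, 5 without PNO5 and 6 without IUO2, where 1900, 1885, 1803, 2083, 2280, 2856 and 2302 genes passed in turn). The labels do not say that equal replicate numbers mark a shared litter or batch, and whether they do was not tested. The deviations of same-numbered pups had mean correlations of 0.232, -0.027 and 0.063, with 4, 1 and 3 of 6 pairs over 0.1. The highest was 0.488, for PNO against SAL. In turn, 2, 0 and 2 of 6 pups of the first-named group were most like the same-numbered pup. With the replicate block, 0 members passed adjustment and 3, 1 and 6 had an unadjusted p under 0.05, beside 725, 1169 and 2597 of 15703 genes, and the paired sign-flip of the ratios called none. For all genes, calls for IUO against PNO were 10 in edgeR, 436 in DESeq2 and 2028 in limma-voom, and for IUO against SAL 0, 49 and 43.

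Leaving out 1 pup moved the difference in log2 Camk2a to Camk2b ratio from -0.26 to 0.10 for PNO against SAL and from -0.035 to 0.26 for IUO against SAL, and the Dlg4 to Dlg3 difference for IUO against SAL from -0.059 to 0.068. Signs changed within groups for Homer1 with Arc (-0.042 in PNO, -0.024 in IUO), Cbln4 with Sst (-0.217 in PNO, -0.078 in IUO), Camk2a with Slc17a7 (-0.256 in PNO) and Dlgap3 with the striatal score (-0.496 in IUO). With 6 pups a group, the median 95% interval of a member was 0.26 either side on the log2 scale.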

Other observations

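Cbln4 was the member least like the others, so the genes nearest to it were listed after its values were seen. Over the 18 pups, the genes with the highest Pearson r to Cbln4 in log2 CPM among those tested were Nnat (neuronatin, 0.938), Gprasp2 (0.918), LOC103690149 (0.915), Slc6a5 (the neuronal glycine transporter, 0.909), Epb41l4b (0.908) and Ankrd55 (0.908). Taken group by group (SAL, PNO, then IUO), Nnat had an r of 0.944, 0.944 and 0.883, and ranged from 463 to 2033 TPM. Slc6a5 had 0.871, 0.965 and 0.897, and ranged from 0.280 to 3.82 TPM. The points share their libraries, and these values are descriptions.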
